A study of Mus musculus with 6 samples.

Results

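The NRF2 antioxidant response genes described here are 10 genes of the 17469 in the deposited gene table. They were picked by gene symbol for their known roles, at a time when earlier results of these data were known. They are the transcription factor gene Nfe2l2 (which encodes NRF2), its inhibitor Keap1, and 8 genes known as NRF2 targets, Hmox1, Nqo1, Gclm, Gclc, Txnrd1, Srxn1, Slc7a11 and Prdx1. All 10 were found in the table, each as 1 entry, and all 10 passed edgeR's filter on low counts.

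RNA-seq was measured in tdTomato+ osteoblast (OB) progenitors sorted by flow cytometry from cultures of adherent bone marrow stromal cells (BMSCs), with 3 libraries from 6-month-old OCN-Cre;Ai9 mice (control) and 3 from TgAPPsweOCN;Ai9 mice of the same age. Both genotypes carried OCN-Cre, a Cre recombinase driven by the osteocalcin promoter, and Ai9, a reporter allele that turns on tdTomato after Cre recombination. TgAPPsweOCN;Ai9 mice also carried LSL-hAPPswe, a human amyloid precursor protein gene with the Swedish mutation behind the CAG promoter and a stop cassette that Cre removes. The libraries therefore describe cultured, passaged and sorted cells rather than bone, the control animals lacked the LSL-hAPPswe transgene, and the sources used here do not state how many mice stand behind each library. The p-values below measure the spread between these libraries.

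NRF2 binds antioxidant response elements in DNA together with a small MAF protein. In resting cells KEAP1 holds NRF2 for ubiquitination by a CUL3 ligase, and oxidants or electrophiles that modify KEAP1 let NRF2 accumulate. NRF2 is thus regulated largely as a protein, and its mRNA level is a separate quantity from its activity. In macrophages and bone-forming cells its targets supply glutathione and thioredoxin, break down haem and reduce quinones and peroxides.

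Of the 8 members with a promoter window in RefSeq (250 bases before to 50 after a gene's start, GRCm38.p6, the patched release of mm10), 5 held the core letters of the antioxidant response element, TGACNNNGC, searched on both strands. The windows of Keap1, Nqo1 and Slc7a11 did not hold these letters, and Hmox1 and Gclc were not among the windows. Over all windows 12.39% of 32851 held the core, and counted by gene 13.99% of 27025 did. The matched stretches are shown because these 5 genes return below as genes that shared an order of libraries. Each is printed in the direction of the gene with the core in capitals, which reads as its reverse complement where the match lay on the opposite strand.
Nfe2l2: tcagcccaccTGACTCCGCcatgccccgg
Gclm: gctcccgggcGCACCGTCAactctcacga
Txnrd1: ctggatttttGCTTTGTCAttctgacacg
Srxn1: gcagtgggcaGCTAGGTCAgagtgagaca
Prdx1: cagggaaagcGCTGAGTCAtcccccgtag
The Nfe2l2 stretch lies at chr2:75704885-75704913 on the minus strand, with the core 240 to 232 bases before the start. The other 4 genes lie on the plus strand. The Gclm stretch is chr3:122245413-122245441 and its core lies 134 to 126 bases before the start on which the window was set. The RefSeq gene itself begins upstream of that start, at 122245487. The Txnrd1 stretch, chr10:82859104-82859132, belongs to 1 of 3 windows of that gene, with the core 92 to 84 bases before that start. The Prdx1 stretch is chr4:116685456-116685484, with the core 133 to 125 bases before the start. There the core TGACTCAGC also holds the AP-1 motif TGACTCA. The Srxn1 stretch, chr2:152105542-152105570, differs from the other 4 in that its core lies 28 to 36 bases after the start, in transcribed sequence. These matches describe letters in a window and were not compared with any measurement of binding.

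Depth was similar across the series, with 19340810 to 22037840 estimated counts per library, so that 3 counts, the smallest level taken as detectable, stood for 0.136 to 0.155 CPM (counting error only). CPM below are counts scaled to the library total after TMM normalization, and a gene was tested with edgeR's quasi-likelihood test and Benjamini-Hochberg adjustment over all 12701 genes tested. App, which the table lists as 1 entry so that human and mouse transcripts cannot be told apart, rose from 842 ± 11.2 to 1153 ± 11.8 CPM (SD, n = 3 per genotype), 0.45 on the log2 scale (standard error, SE, 0.0509; adjusted p = 7.9e-05). Sorted OB progenitors carried abundant myeloid markers. The summed FPKM of 15 myeloid markers was 22126 to 23307 in control and 18178 to 21830 in TgAPPsweOCN;Ai9 libraries, and that of 15 stromal and osteoblast markers was 1132 to 1229 and 657 to 907. The osteoblast gene Bglap, which encodes osteocalcin, lay below 1 FPKM in the mean of both genotypes and Sp7, an osteoblast transcription factor, at 1.36 and 0.69 FPKM, so defining markers of the labelled cell type were near 0. Col1a1 (45.5 and 34.9 FPKM) and Spp1 (944 and 561 FPKM), the latter also known from macrophages, were higher. Neutrophil markers summed to 12.8 to 53.7 and 18.4 to 51.7 FPKM, endothelial markers to 3.67 to 4.78 and 4.96 to 5.51 FPKM, and lymphoid markers to at most 0.22 FPKM in any library. No marker was at 0 in all 6 libraries. Of the 15 myeloid markers, 6 rose (Aif1 by 2.04 and Adgre1 by 1.89 on the log2 scale), 6 fell (Mrc1 by 2.38 and Csf1r by 1.49) and 3 did not pass. In such sorted bulk libraries fewer cells of a type and less RNA per cell cannot be told apart, and the part of these marker shifts in the results below was not tested.

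The regulator fell while most of the targets that changed rose. By adjusted p alone 5 of the 10 members were higher in TgAPPsweOCN;Ai9 cells (Keap1, Hmox1, Txnrd1, Slc7a11 and Prdx1), 2 were lower (Nfe2l2 and Gclc), and 3 did not pass (Nqo1, Gclm and Srxn1). Over all tested genes 32.5% were higher and 31.5% lower by this rule. With a log2 fold change of at least 1 as well, 1 member was up-regulated (Slc7a11) and 0 down-regulated, against 8.9% and 9.2% of all tested genes. The 0 stands beside 2 members that were lower at an unadjusted p under 0.05 in edgeR, and it was also 0 in DESeq2. All 3 TgAPPsweOCN;Ai9 libraries lay above all 3 controls for 5 members and below them for 2, where 34.8% of all tested genes lay above and 34.9% below. The members had a median log2 fold change of 0.27, beside -0.02 over all tested genes. In a list of only 10, the up-regulated count was near the background, and the count higher by adjusted p alone was above it with TMM scaling but not with library size only, where it was 2 of 10 and 22.1% of all tested genes were higher.

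The choice of scaling decided whether 3 of these genes (Keap1, Txnrd1 and Prdx1) passed, and it turned the sign of Nqo1. With library size only, in place of TMM, the median over all tested genes shifted from -0.02 to -0.23 on the log2 scale, and the split of called genes from 1130 up and 1169 down to 846 up and 1732 down. The number of members higher by adjusted p then dropped from 5 to 2 (Hmox1 and Slc7a11), while the same 2 members remained lower. Of all tested genes 22.1% were then higher and 45.9% lower. A change of scaling shifts all genes by nearly the same amount, so values relative to the median gene were bound to stay. Keap1 stood 0.39 above it under both scalings, Txnrd1 0.47 and 0.46, Prdx1 0.29 and 0.29, and Nfe2l2 stood at -0.43 and -0.43. This agreement is therefore no check on these genes.

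**Figure D1:**
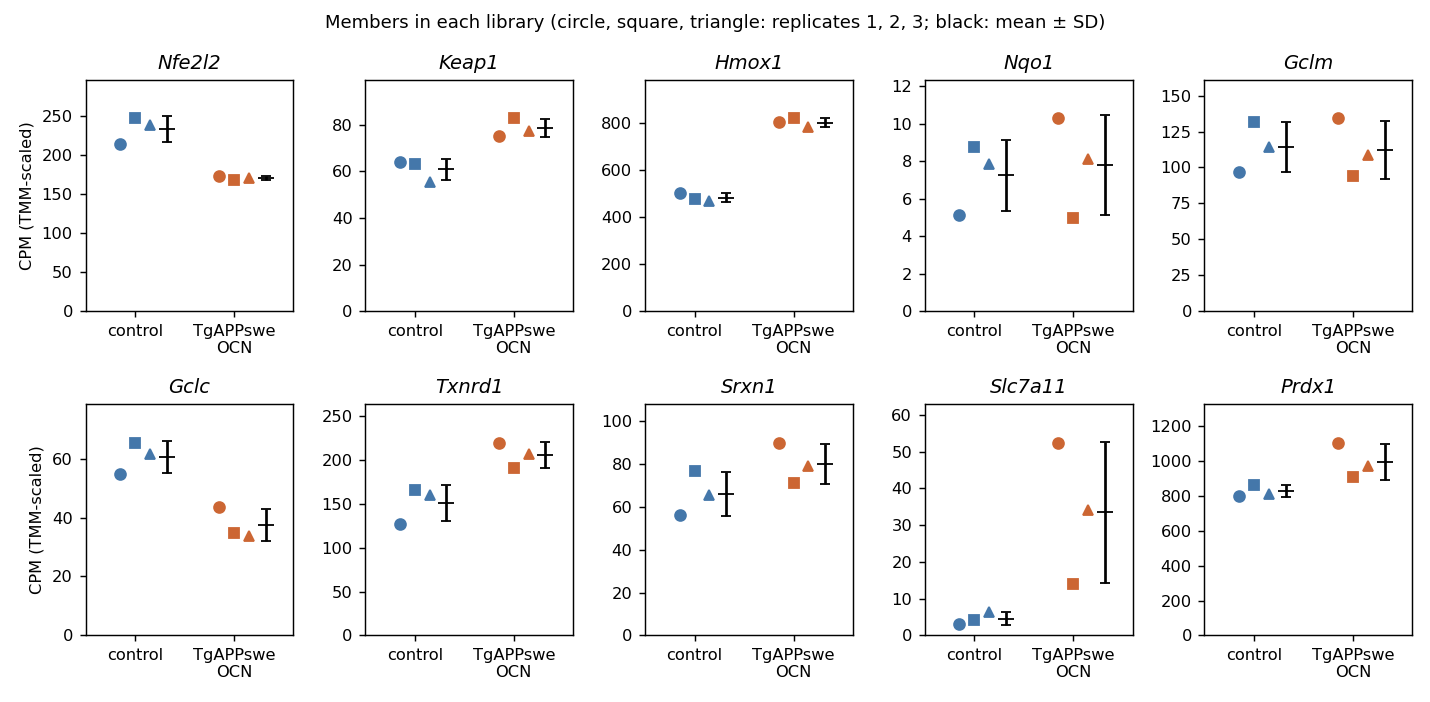
Each panel plots 1 member, with CPM after TMM scaling on the y axis (from 0) and the 3 control (blue) and 3 TgAPPsweOCN;Ai9 (orange) libraries on the x axis, and black marks give mean ± SD. Nfe2l2 and Gclc sit lower in every TgAPPsweOCN;Ai9 library, Hmox1 and Slc7a11 sit higher in every one, and Nqo1, Gclm and Srxn1 overlap between genotypes.

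Nfe2l2 (Entrez 18024, chr2:75675513-75704641, minus strand), the regulator, measured 214, 247 and 239 CPM in the 3 control libraries and 173, 168 and 170 CPM in the 3 TgAPPsweOCN;Ai9 libraries. The groups did not overlap, and the 3 TgAPPsweOCN;Ai9 values lay within 1.03-fold of each other while the controls spread over 1.15-fold. The log2 fold change was -0.45 (SE 0.0648, adjusted p = 0.000333), and it passed in all 15 alternatives, from -0.67 to -0.41. Per gene length the level was 103 ± 7.86 FPKM in control and 65.0 ± 0.267 FPKM in TgAPPsweOCN;Ai9 cells (SD, n = 3 each).

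Keap1 (Entrez 50868, chr9:21229730-21239361, minus strand), the adaptor that leads NRF2 to degradation, measured 64.0, 63.0 and 55.5 CPM in control and 75.3, 82.8 and 77.4 CPM in TgAPPsweOCN;Ai9 libraries. Inhibitor and regulator thus had opposite signs, with every TgAPPsweOCN;Ai9 library above every control for Keap1. Its log2 fold change was 0.37 (SE 0.0726, adjusted p = 0.00211), but 0.15 with library size only, where it did not pass (adjusted p = 0.103).

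Among the enzymes, Hmox1 (Entrez 15368, chr8:75093621-75100589, plus strand), the inducible haem oxygenase, was the most abundant target after Prdx1. It measured 503, 476 and 468 CPM in control and 803, 820 and 783 CPM in TgAPPsweOCN;Ai9 libraries. The 2 sets were far apart and tight, with 1.07-fold and 1.05-fold between the highest and lowest library. The log2 fold change was 0.73 (SE 0.0557, adjusted p = 8e-06), between 0.52 and 0.76 over the 15 alternatives, past the threshold in each.

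Nqo1 (Entrez 18104, chr8:107388225-107403206, minus strand), a quinone reductase that is often used as a readout of NRF2 activity, was low and scattered. The control libraries measured 5.13, 8.76 and 7.84 CPM and the TgAPPsweOCN;Ai9 libraries 10.3, 4.99 and 8.13 CPM. Both the highest and the lowest value belonged to TgAPPsweOCN;Ai9 libraries, and the groups overlapped throughout. With a log2 fold change of 0.10 (SE 0.278, adjusted p = 0.761) and 2.06-fold between TgAPPsweOCN;Ai9 libraries, a difference in either direction was not detected. The sign turned to negative with library size only (-0.12).

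The 2 subunits of glutamate-cysteine ligase, which makes the first step of glutathione synthesis, did not move together. Gclc (Entrez 14629, chr9:77754535-77794485, plus strand), the catalytic subunit, measured 54.8, 65.4 and 61.6 CPM in control and 43.6, 34.8 and 33.8 CPM in TgAPPsweOCN;Ai9 libraries. It fell in every library relative to every control, with a log2 fold change of -0.70 (SE 0.109, adjusted p = 0.00055) that passed in all 15 alternatives. Gclm (Entrez 14630, chr3:122245557-122270732, plus strand), the modifier subunit, measured 96.8, 131 and 114 CPM in control and 134, 94.4 and 109 CPM in TgAPPsweOCN;Ai9 libraries. Its groups overlapped fully, and its log2 fold change was -0.02 (SE 0.143, adjusted p = 0.907). Within a library the FPKM of Gclm over that of Gclc was 2.81, 3.25 and 2.98 in control and 5.02, 4.52 and 5.28 in TgAPPsweOCN;Ai9 cells. This ratio, 3.02 ± 0.222 against 4.94 ± 0.385 (SD, n = 3 each), was formed after the values had been seen and is a description.

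Slc7a11 (Entrez 26570, chr3:49892526-50443614, minus strand), the transporter chain that exchanges glutamate for the cystine used in glutathione synthesis, had the largest change of the members under every alternative run. It measured 3.23, 4.08 and 6.46 CPM in control and 52.4, 14.0 and 34.0 CPM in TgAPPsweOCN;Ai9 libraries. All 3 TgAPPsweOCN;Ai9 libraries were above the controls, but they differed by 3.73-fold among themselves, the widest spread of any member. The log2 fold change was 2.87 (SE 0.469, adjusted p = 0.000735), or 7.29-fold. Without TgAPPsweOCN;Ai9 replicate 1 the fold was 5.24, without replicate 2 it was 9.45, and on the log2(FPKM + 1) scale, which understates low genes, it was 2.64. Its deposited counts were fractional, so that reads shared with other features entered them by estimation.

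In the thioredoxin branch, Txnrd1 (Entrez 50493, chr10:82833951-82897712, plus strand), the cytosolic thioredoxin reductase, measured 127, 165 and 160 CPM in control and 220, 191 and 207 CPM in TgAPPsweOCN;Ai9 libraries. The groups did not overlap, and the log2 fold change was 0.45 (SE 0.103, adjusted p = 0.00495), against 0.23 (adjusted p = 0.075) with library size only. Srxn1 (Entrez 76650, chr2:152105516-152111376, plus strand), the sulfiredoxin that repairs over-oxidised peroxiredoxins, measured 55.9, 76.6 and 65.2 CPM in control and 89.9, 71.0 and 78.9 CPM in TgAPPsweOCN;Ai9 libraries. Control replicate 2 lay above TgAPPsweOCN;Ai9 replicate 2, and the gene did not pass (log2 fold change 0.28, SE 0.124, adjusted p = 0.0793). It passed without control replicate 2 (adjusted p = 0.0179), without TgAPPsweOCN;Ai9 replicate 2 (0.0356) and in DESeq2 (0.0425). With library size only its log2 fold change was 0.06 (adjusted p = 0.676), without control replicate 1 it was 0.16 (0.239) and without TgAPPsweOCN;Ai9 replicate 1 it was 0.19 (0.22). Prdx1 (Entrez 18477, chr4:116685544-116700822, plus strand), an abundant peroxiredoxin that reduces hydrogen peroxide, measured 801, 864 and 811 CPM in control and 1105, 908 and 968 CPM in TgAPPsweOCN;Ai9 libraries. The groups did not overlap, and the log2 fold change was 0.27 (SE 0.0798, adjusted p = 0.0168). It was 0.05 with library size only (adjusted p = 0.542), and without control replicate 3 the adjusted p was 0.0710.

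**Figure D2:**
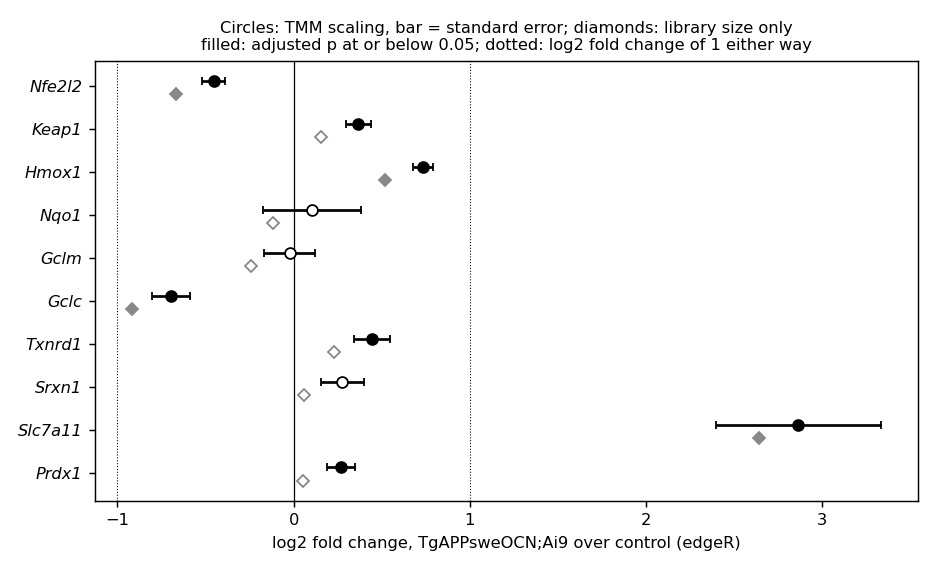
The x axis gives the log2 fold change of TgAPPsweOCN;Ai9 over control and the y axis the 10 members, with circles for TMM scaling (bar, standard error) and diamonds for library size only, filled where the adjusted p was at or below 0.05. Nfe2l2, Gclc, Hmox1 and Slc7a11 are filled under both scalings, and Keap1, Txnrd1 and Prdx1 under TMM only.

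By FPKM, which allows levels of different genes to be compared per length, the members covered a wide range. In control the order from high to low was Prdx1 (659 ± 27.5), Hmox1 (344 ± 12.0), Nfe2l2 (103 ± 7.86), Gclm (61.3 ± 9.39), Txnrd1 (48.5 ± 6.90), Srxn1 (25.9 ± 4.11), Gclc (20.3 ± 1.68), Keap1 (20.0 ± 1.58), Nqo1 (5.26 ± 1.38) and Slc7a11 (0.547 ± 0.191), as mean ± SD over 3 libraries. Gclm and Txnrd1 overlapped in their library ranges, as did Gclc and Keap1, and the other neighbours were separate. In TgAPPsweOCN;Ai9 cells Prdx1 (683 ± 55.8), Hmox1 (493 ± 17.1) and Nfe2l2 (65.0 ± 0.267) kept the first 3 places. Then came Txnrd1 (56.9 ± 3.06), Gclm (51.9 ± 8.32), Srxn1 (26.95 ± 2.69), Keap1 (22.5 ± 1.45), Gclc (10.5 ± 1.41), Nqo1 (4.85 ± 1.57) and Slc7a11 (3.36 ± 1.88). Here Txnrd1 and Gclm overlapped, and Nqo1 and Slc7a11 overlapped. Gclc and Keap1 changed places, from overlapping ranges in control to Gclc below Keap1 in all TgAPPsweOCN;Ai9 libraries.

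To set the regulator against its targets free of the scaling between libraries, each member's count was divided by the Nfe2l2 count of the same library. All 9 ratios share this denominator, so a lower Nfe2l2 raises all of them, and they are not independent of each other. In control libraries there were 2.35, 1.93 and 1.96 Hmox1 counts for each Nfe2l2 count, and 4.64, 4.88 and 4.60 in TgAPPsweOCN;Ai9 libraries. For Txnrd1 the ratio was 0.593, 0.670 and 0.671 in control and 1.27, 1.13 and 1.21 in TgAPPsweOCN;Ai9 cells. Counts of different genes also depend on their length, so a ratio above 1 does not mean a higher level. By FPKM Txnrd1 stayed below Nfe2l2, at 48.5 against 103 in control and 56.9 against 65.0 in TgAPPsweOCN;Ai9 cells. As a difference of mean log2 ratios, TgAPPsweOCN;Ai9 minus control, the values were 3.18 for Slc7a11, 1.18 for Hmox1, 0.90 for Txnrd1, 0.82 for Keap1, 0.73 for Srxn1, 0.71 for Prdx1, 0.53 for Nqo1, 0.42 for Gclm and -0.25 for Gclc. In 7 of the 9 every TgAPPsweOCN;Ai9 library lay above every control, for Gclc every one lay below, and for Nqo1 they overlapped. The share of all tested genes with such a ratio was not computed, so the 7 cannot be set against a background. Nfe2l2 stood at -0.43 relative to the median gene, so a gene at that median would also rise against it. Gclm, with a log2 fold change of -0.02, is among the 7. Two-sided exact permutation tests over the 6 libraries gave p = 0.1 for 8 ratios, the smallest value that 3 against 3 libraries allow (0.1125 adjusted over the 9), and p = 0.3 for Nqo1. No ratio could therefore reach 0.05 by this permutation test with 3 libraries per genotype.

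Gclc was the member whose ratio to Nfe2l2 went down. Its ratio to Nfe2l2 was 0.256, 0.265 and 0.258 in control libraries, a narrow band, and 0.252, 0.207 and 0.199 in TgAPPsweOCN;Ai9 libraries. Replicate 1 of TgAPPsweOCN;Ai9 lay just under the control band and the other two further below it. Both genes fell, Gclc by 0.70 and Nfe2l2 by 0.45 on the log2 scale.

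**Figure D3:**
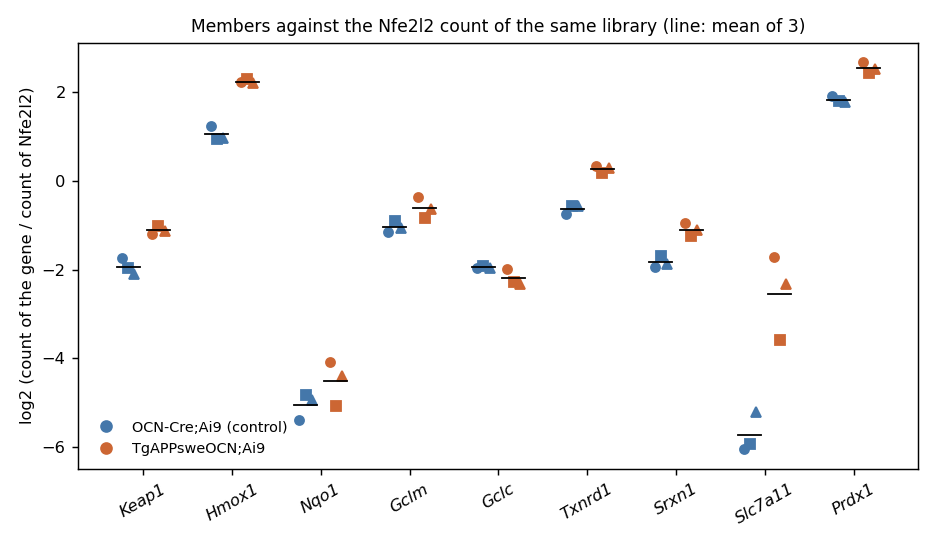
The y axis gives the log2 ratio of each member's count to the Nfe2l2 count of the same library and the x axis the 9 other members, with blue for control, orange for TgAPPsweOCN;Ai9 and a line for the mean of 3 libraries. The orange points lie above the blue ones for 7 of the 9 genes, overlap them for Nqo1 and lie below them for Gclc.

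The members also varied between libraries of 1 genotype, and 6 of the 10 did so in the same order. Nfe2l2, Nqo1, Gclm, Txnrd1, Srxn1 and Prdx1 were highest in control replicate 2, next in replicate 3 and lowest in replicate 1, and highest in TgAPPsweOCN;Ai9 replicate 1, next in replicate 3 and lowest in replicate 2. This combination was found in 952 of the 12701 tested genes, or 7.50%. The order was noticed after the values had been seen and is given without a test. By FPKM 5 of the 10 members had it, since the 3 TgAPPsweOCN;Ai9 values of Nfe2l2 were almost equal, beside 5.96% of tested genes.

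The sizes of these deviations differed. Gclm spread over 1.36-fold in control and 1.42-fold in TgAPPsweOCN;Ai9 libraries, Srxn1 over 1.37-fold and 1.27-fold, and Txnrd1 over 1.30-fold and 1.15-fold. Among 8942 tested genes with a mean of at least 10 CPM, the median spread was 1.12-fold and 1.11-fold, and 9 in 10 genes lay below 1.29-fold and 1.31-fold. Gclm, Srxn1 and Txnrd1 were hence more variable between control libraries than 9 in 10 of these genes, whereas Hmox1 (1.07-fold and 1.05-fold) lay below the median. Keap1 lay slightly above it in control (1.15-fold) and below it in TgAPPsweOCN;Ai9 libraries (1.10-fold). All 5 genes with the antioxidant response core in their window, printed above, belonged to these 6, and by FPKM 4 of the 5 had the order. Among members with a window but no core, Nqo1 had the order and Keap1 and Slc7a11 did not. The order was picked from the members' own values, so this overlap tests no link between core and order. Over all tested genes with a window, 8.18% of the 1723 with the core and 7.21% of the 8394 without it had the order.

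**Figure D4:**
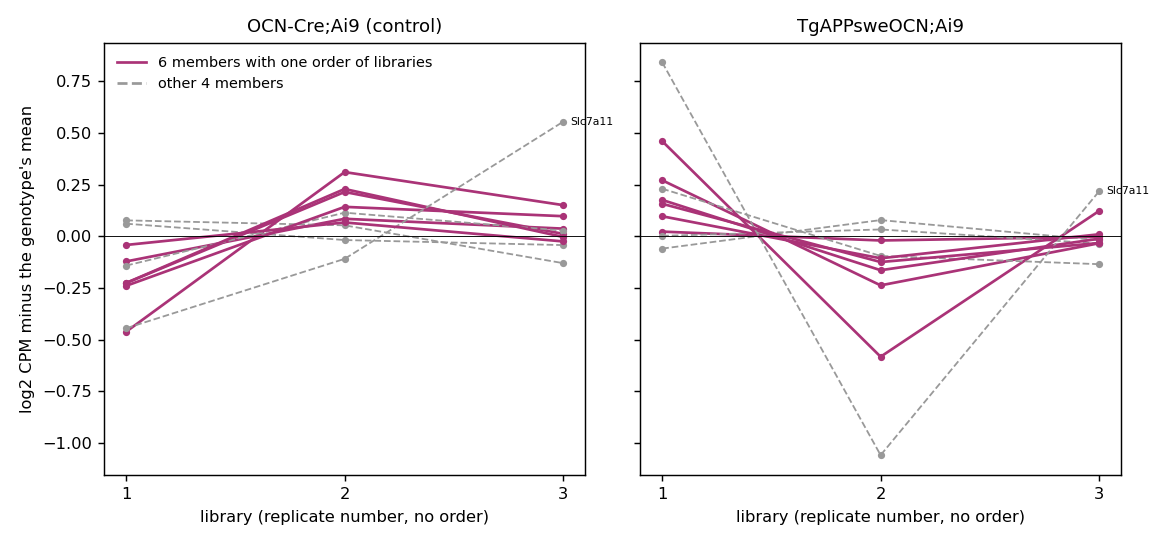
The y axis gives log2 CPM minus the mean of the genotype and the x axis the 3 libraries of control (left) and TgAPPsweOCN;Ai9 (right), with 1 line per member. The 6 solid lines share the order of libraries, with control replicate 2 and TgAPPsweOCN;Ai9 replicate 1 highest, and Slc7a11 among the 4 dashed lines deviates most in TgAPPsweOCN;Ai9 cells.

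The genes with profiles over the 6 libraries nearest to that of Nfe2l2 were Cdk2, Tpd52, Dgcr8, Ilvbl and Sestd1, by Euclidean distance of centred log2 CPM among 8941 genes. Cdk2, a cell cycle kinase, lay closest, at a distance of 0.0635, with 20.4, 23.3 and 23.3 FPKM in control and 14.7, 13.8 and 14.6 FPKM in TgAPPsweOCN;Ai9 libraries. The log2 fold changes of the 5 genes lay between -0.46 and -0.41, beside -0.45 for Nfe2l2. This closeness follows from the selection, because the distance includes the difference between genotypes. None of them was a member or in a pathway list.

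The wider pathway moved in both directions. Of 112 further genes in 9 lists, 111 were in the table and 102 were tested, of which 42 were higher, 26 lower and 34 did not pass, with a median log2 fold change of 0.09. That is 41.2% higher and 25.5% lower, beside 32.5% and 31.5% of all tested genes. With library size only the counts were 32 higher and 45 lower, where 22.1% of all tested genes were higher and 45.9% lower. The median of these lists stood 0.11 above that of all tested genes under both scalings, which had to agree because the scaling shifts all genes nearly alike. Counts with library size only are given below beside those of each list, and they carry this shift of all genes.

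Partners and regulators of NRF2 were mostly higher, with 8 of 13 tested genes higher and 3 lower (5 and 5 with library size only). Nfe2l1, a related factor of the same CNC family, rose from 46.9 ± 0.857 to 105 ± 3.43 FPKM (by 1.39 on the log2 scale, adjusted p = 2.5e-07), the opposite direction to Nfe2l2. The small MAF partners differed. Maff rose from 3.04 ± 0.532 to 8.31 ± 1.85 FPKM (by 1.67 on the log2 scale), the more abundant Mafg was lower, at 46.6 ± 1.25 and 39.1 ± 1.21 FPKM (log2 fold change -0.17, adjusted p = 0.0208), and Mafk did not pass (-0.10, adjusted p = 0.159). Nfe2l3, the third factor of the family, had a log2 fold change of -2.50 and Bach2, a repressor of the same elements, one of -1.26, but neither was above 0.3 FPKM in the mean of either genotype.

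Among 15 tested genes of glutathione synthesis and use, 4 were higher and 3 lower (4 and 6 with library size only). Glrx, a glutaredoxin, rose from 105 ± 10.5 to 538 ± 23.8 FPKM (log2 fold change 2.58, adjusted p = 1.4e-07), and Gsr, which regenerates reduced glutathione, rose by 1.77 on the log2 scale. Gpx4, the peroxidase that reduces lipid peroxides with glutathione, fell from 326 ± 15.5 to 124 ± 4.74 FPKM (log2 fold change -1.18, adjusted p = 8.5e-07), and Ggt5, a gamma-glutamyl transferase family member, fell by 1.64. Reductase and glutaredoxin thus rose in the same libraries in which Gclc and Gpx4 fell. Of 15 tested glutathione S-transferases, 2 were higher (Gstt1 by 1.66 and Gstm4 by 0.75) and 5 lower. That is 13.3% higher and 33.3% lower, beside 32.5% and 31.5% of all tested genes. With library size only the counts were 2 and 9. The lower genes included the microsomal Mgst3, which fell by 1.77, and Mgst1, which fell by 1.21.

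Of 15 tested thioredoxin and peroxiredoxin genes, 7 were higher and 3 lower (6 and 7 with library size only). Prdx5 rose from 222 ± 25.5 to 723 ± 108 FPKM (log2 fold change 1.92, adjusted p = 4.5e-06), a larger change than that of Prdx1, and Sesn2, a stress-induced sestrin, rose by 0.90. Msra, a methionine sulfoxide reductase, fell by 0.86, and Txnip, which binds and inhibits thioredoxin, fell by 0.64. Of 11 tested genes of NADPH supply 4 were higher and 4 lower (36.4% each, near the shares of all tested genes), or 3 and 7 with library size only. Me1, the cytosolic malic enzyme, rose by 1.61 and the NAD kinase Nadk by 0.80, while Taldo1 of the pentose phosphate pathway fell by 0.94 and Idh1 by 0.68.

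Of 9 tested haem and iron genes, a pathway in which Hmox1 acts, 4 were higher and 3 lower, or 3 and 4 with library size only. Fth1, the ferritin heavy chain, rose by 1.22 and Blvrb, a biliverdin reductase, by 1.09. Slc40a1, the iron exporter ferroportin, fell from 68.7 ± 2.39 to 13.8 ± 1.08 FPKM (log2 fold change -2.09, adjusted p = 1.8e-07), and Ftl1, the ferritin light chain, fell by 0.58 with fractional counts. Blvra, the other biliverdin reductase, was also lower (log2 fold change -0.21, adjusted p = 0.0111), so that neither the 2 ferritin chains nor the 2 biliverdin reductases moved together. Among 11 detoxifying oxidoreductases 4 were higher (Aox1 by 1.27, although below 1 FPKM, and Ugdh by 0.84) and 5 lower (Cbr3, which fell by 1.38, and Osgin1, which fell by 1.37), or 2 and 5 with library size only.

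The highest median log2 fold changes of the 9 further lists, 0.43 each, were those of superoxide dismutases with catalase and of NADPH oxidase subunits. Of 4 genes for superoxide dismutases and catalase, 2 were higher and 0 lower (2 and 1 with library size only), with Sod2, the mitochondrial enzyme, rising from 20.4 ± 0.822 to 147 ± 17.7 FPKM (log2 fold change 3.07, adjusted p = 1.4e-07) and Sod3 by 0.74. Of 9 subunits of NADPH oxidases, complexes that produce superoxide, 7 were higher and 0 lower (5 and 1 with library size only). Rac2, a small GTPase of such a complex, rose from 120 ± 12.3 to 843 ± 20.1 FPKM, and Nox1, 1 of several catalytic subunits in the list, from 0.143 ± 0.0702 to 2.68 ± 0.562 FPKM. Sod2, Rac2 and Nox1 had fractional counts. Several subunits of this list are myeloid genes, and the myeloid marker values given above moved in both directions in the same libraries.

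**Figure D5:**
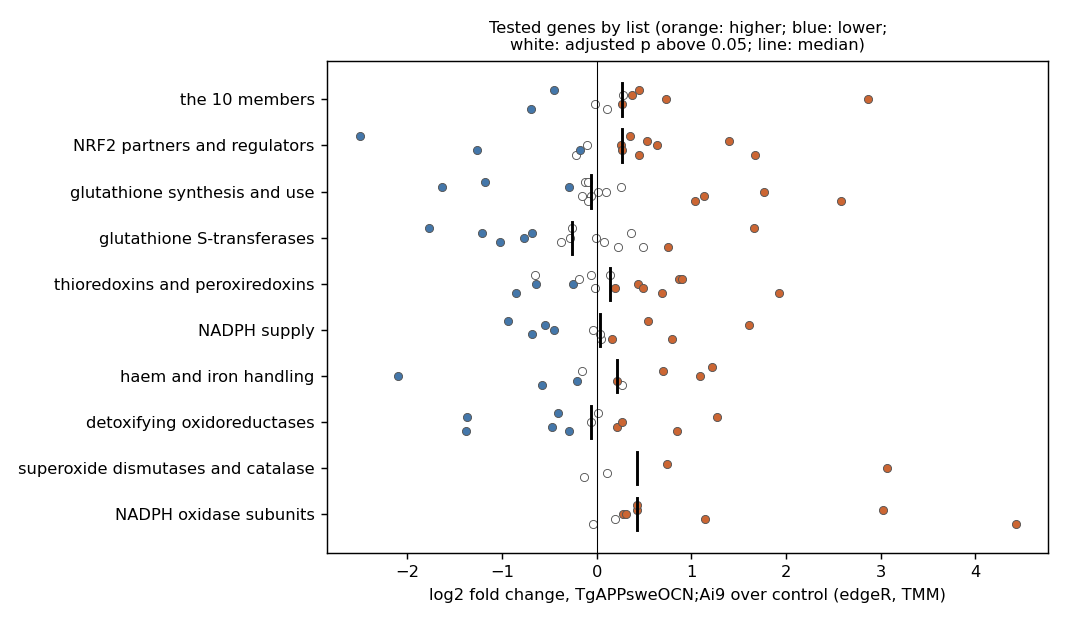
The x axis gives the log2 fold change of TgAPPsweOCN;Ai9 over control with TMM scaling and the y axis the 10 members and 9 further lists, with 1 point per tested gene (orange higher, blue lower, white not past the threshold) and a line for the median. The median lies at 0.27 for the members and at 0.43 for the NADPH oxidase subunits, and it lies below 0 for glutathione S-transferases, glutathione genes and detoxifying oxidoreductases.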

How the data were processed

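The authors mapped clean reads and deposited estimated counts per gene (17469 genes, 13.3% to 14.4% of them fractional in a library). The authors also deposited FPKM values for the same genes. The submitters' processing notes name HISAT2 2.0.4, Bowtie2 2.2.5, RSEM 1.2.12 and DESeq2 1.4.5 and the build mm10. A second deposited table, with a log2 ratio and p-value of the authors' own comparison, was not used. Rounded to integers, the estimated counts were compared between genotypes by edgeR 4.0.16 under R 4.3.3, with filterByExpr, TMM and the quasi-likelihood test. A called gene had an adjusted p (Benjamini-Hochberg) of at most 0.05 and changed by at least 1 on the log2 scale. The biological coefficient of variation was 9.85%. Libraries held 19340810 to 22037840 counts, and the fewest counts among the members were those of Slc7a11 in control (68 to 135) and Nqo1 (103 to 206), where counting error adds to the spread. Fractional counts mark reads shared between features.

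Alternatives were RLE size factors, library size only, DESeq2 1.42.0, 2 other count filters, a replicate block, limma 3.58.1 on log2(FPKM + 1), with and without a filter, and on log2(FPKM + 0.1), and leaving out each library. Named genes are the members, App, up to 2 top and 2 bottom genes past the adjusted p in each pathway list, and the 5 profiles nearest to Nfe2l2. Mafg, Mafk, Bach1, Blvra, the marker genes and the spread comparisons named beside them were chosen after their values were seen. The members and lists were chosen with earlier results of these data known. Gene positions are those of GENCODE vM21, promoter windows those of RefSeq (GRCm38.p6). Scripts ran in Python 3.11.15 (pandas 2.3.3, scipy 1.17.1, matplotlib 3.10.9) and the edgeR procedure was tested on simulated data.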

Additional observations from a re-analysis of the deposited data

How the results depend on the processing

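By adjusted p alone, Nfe2l2, Gclc, Hmox1 and Slc7a11 passed in all 15 alternatives, Keap1 and Txnrd1 in 11, Prdx1 in 10, Srxn1 in 3, and Nqo1 and Gclm in 0. The members higher by adjusted p alone numbered 2 with library size only and with each of the 3 limma fits on log2 FPKM, whose scaling also follows library size, and limma on log2(FPKM + 1) called 593 genes up, or 589 without a filter. Nqo1 turned negative with library size only (-0.12), limma on log2(FPKM + 1) (-0.11, also without a filter) and limma on log2(FPKM + 0.1) (-0.13), and leaving out each library in turn gave -0.14 to 0.35. For Gclm leaving out each library gave -0.17 to 0.094. The place of 8 of 10 members in the control order of levels was the same when CPM over inferred length replaced FPKM. Of the genes named by rule from the pathway lists, Fth1 and Ftl1 missed the adjusted p in the unfiltered limma fit (0.0798 and 0.0559), and the others kept their sign and passed it in each alternative that tested them. With the fold change threshold as well, 17 of 22 were called in each. The exceptions were Blvrb (library size only and the limma fits), Aox1 and Bach2 (the limma fits), Nfe2l3 (the limma fits with a pseudocount of 1) and Fth1.

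Replicate numbers did not pair the libraries (correlation of deviations 0.013, 0.007 and 0.141 for the 3 same-numbered pairs). With a replicate block 1115 genes were up and 1147 down, the members higher and lower by adjusted p numbered 5 and 2, no member crossed the adjusted p, and not every library correlated best with its own number. With 3 libraries per genotype, changes in Nqo1 and Gclm of the size of their SE (0.278 and 0.143 on the log2 scale) could not be detected.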
